A study of Mus musculus with 6 samples.

Results

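The 10 genes described here encode ligands and receptors of the platelet-derived growth factor (PDGF) and vascular endothelial growth factor (VEGF) families: the ligands Pdgfa, Pdgfb, Pdgfc, Pdgfd, Vegfa and Vegfc and the receptors Pdgfra, Pdgfrb, Kdr and Flt1. They were taken by symbol from a table of 22320 genes, and all 10 were found in it. The table compares whole testes of mice at postnatal day 1.5, from a hybrid of C57BL6/J and 129/SvEv. Arid4bSCKO mice (Arid4b-/Flox; Amh-cre) carried a null and a floxed allele of Arid4b, which encodes a chromatin protein, and Cre driven in Sertoli cells by the Amh promoter. Control mice (Arid4b+/Flox; Amh-cre) carried no null allele but a wild-type one. Both groups thus had the floxed allele and Cre, and cells outside the Sertoli lineage also differed by the null allele. Each group had 3 pools of 4 testes, and nothing in the labels says whether the pools came from separate litters.

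PDGFs are dimeric growth factors that bring 2 receptor tyrosine kinases together at the cell surface. In the developing testis PDGFA is made by Sertoli cells and acts on PDGFRA of interstitial cells, among them the progenitors of Leydig cells, while PDGFB from endothelium holds PDGFRB-bearing pericytes on vessels. VEGFA drives vessel growth through KDR, and FLT1 binds VEGFA tightly with little kinase activity, its soluble form acting as a trap. VEGFC acts mainly on lymphatic endothelium.

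Of the 6 ligands, Pdgfb and Vegfa rose in Arid4bSCKO testes, Pdgfb by 1.41 log2 units and Vegfa by 0.56. The other 4 ligands and the 4 receptors did not pass the test. All 6 ligands had positive differences and all 4 receptors negative ones, the receptors between -0.36 and -0.18. A gene is called here where a moderated limma test across 19095 genes gave a Benjamini-Hochberg adjusted p below 0.05. With 2 of 10 genes called (20%), against 13.8% of all genes tested, the share of calls was near the background. Both calls were upward, and 7.37% of all genes tested were called higher and 6.46% lower. None of the 10 passed the FDR of the authors' deposited table, which 0.26% of its genes did. That 0 stands beside 2 genes, Pdgfb and Vegfa, with an unadjusted p below 0.05 in the authors' deposited table, where 20.9% of all genes had one.

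**Figure D1:**
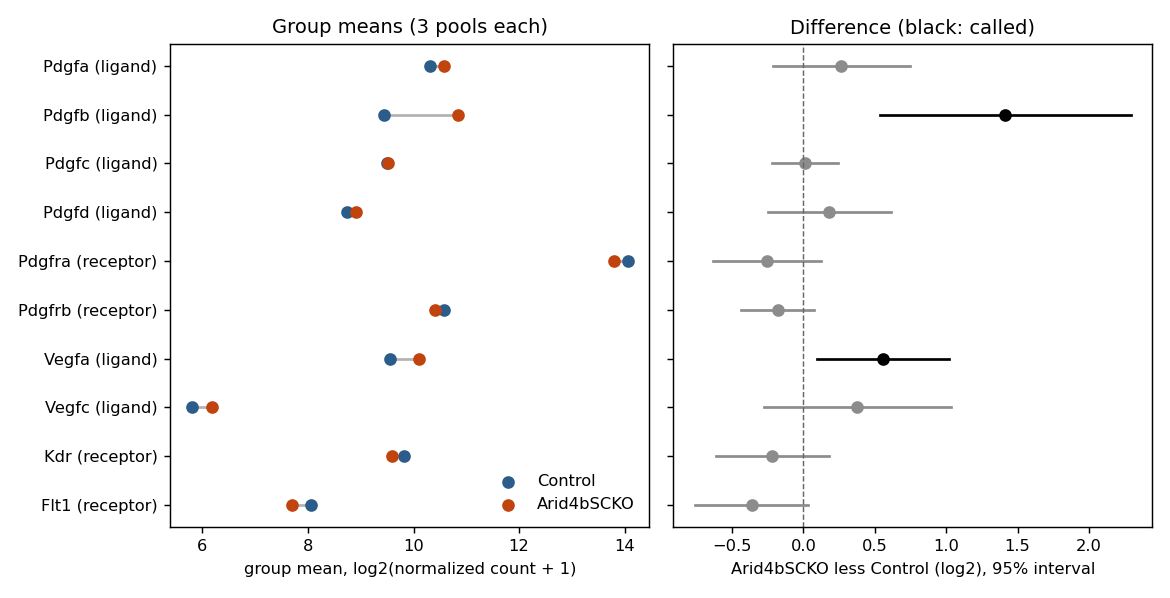
Left: the authors' mean of log2(normalized count + 1) in Control (blue) and Arid4bSCKO (red) for each gene, averaged over 3 pools. Right: the difference (Arid4bSCKO less Control, log2) with its 95% interval, black where the moderated test called it; only the intervals of Pdgfb (0.54 to 2.29) and Vegfa (0.10 to 1.02) lie clear of 0.

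Promoter sequences of Vegfa, which rose, and of its receptors Flt1 and Kdr, which had negative differences, are shown to set the regulatory letters of this ligand and its receptors side by side. Each runs from 250 bases before to 50 bases after a gene start (RefSeq, GRCm38.p6, the build that mm10 names), 5′ to 3′ on the gene's own strand, at chr17:46032328-46032627, chr5:147725962-147726261 and chr5:75978406-75978705, all on the minus strand. Capitals mark matches to the GC box GGGCGG on either strand and to the cAMP response element TGACGTCA.
Vegfa: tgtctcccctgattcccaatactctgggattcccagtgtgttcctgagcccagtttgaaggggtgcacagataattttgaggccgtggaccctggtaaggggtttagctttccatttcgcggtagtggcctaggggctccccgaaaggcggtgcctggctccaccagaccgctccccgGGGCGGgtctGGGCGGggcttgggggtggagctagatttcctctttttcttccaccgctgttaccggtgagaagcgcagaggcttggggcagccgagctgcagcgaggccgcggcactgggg
Flt1: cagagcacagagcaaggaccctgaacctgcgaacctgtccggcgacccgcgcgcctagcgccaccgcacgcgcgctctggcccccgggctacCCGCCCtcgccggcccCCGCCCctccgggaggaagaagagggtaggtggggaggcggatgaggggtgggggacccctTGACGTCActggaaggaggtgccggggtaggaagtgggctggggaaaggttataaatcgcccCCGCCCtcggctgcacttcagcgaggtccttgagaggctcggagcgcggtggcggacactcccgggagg
Kdr: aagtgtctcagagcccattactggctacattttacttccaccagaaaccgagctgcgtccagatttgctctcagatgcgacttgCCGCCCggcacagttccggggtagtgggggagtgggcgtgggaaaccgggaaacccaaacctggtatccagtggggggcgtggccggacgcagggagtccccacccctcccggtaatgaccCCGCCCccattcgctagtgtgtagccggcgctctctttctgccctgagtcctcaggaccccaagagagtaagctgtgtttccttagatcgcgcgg
The Vegfa window holds 2 GC boxes, the Flt1 window 3 and the Kdr window 2, and 35.7% of the 32851 promoters of the same length hold at least 1. The Flt1 window also holds a cAMP response element, found in 1.79% of all promoters, and a TATA box (TATAAA, 13.6% of promoters). The hypoxia response core ACGTG (19.6% of promoters) and the AP-1 letters TGANTCA (7.81%), searched on both strands, are in none of these 3 windows. The window of a second Vegfa start, at chr17:46025114-46025413, holds 1 hypoxia response core, 1 GC box and 1 CCAAT box. This window lies inside the gene (46016993 to 46032369, minus strand), so its matches are not upstream of the first start. The first Vegfa window also holds a CCAAT box (CCAAT, 37.4% of promoters). RefSeq windows were matched for 8 of the 10 genes, and Pdgfb and Pdgfrb had no entry. Over the 8 genes, 5 had a GC box in at least 1 window, and Pdgfc and Pdgfra had no match to any motif searched. These are matches of letters only.

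The ligand with the largest difference was Pdgfb (chromosome 15, 79995874 to 80014977, minus strand, mm10), which encodes the B chain that recruits pericytes to vessels. The authors' mean log2 level was 9.43 in Control and 10.85 in Arid4bSCKO, or about 690 and 1839 normalized counts. Values of single pools were not analysed here, so the order of the 6 pools is not known. The difference of 1.41 (95% interval 0.54 to 2.29) was a 2.66-fold rise (1.45 to 4.89) on the log2(normalized count + 1) scale, with an adjusted p of 0.0117 in the moderated limma test. Of the 2974 genes tested within 0.5 log2 units of its mean level, 0.336% had a difference at least as high. The spread between pools was wide for a gene of this level: the deposited p implies an SD of 0.39, and the median of those genes was 0.11. The ratio of medians in the authors' deposited table was larger, at 1.70 log2 units.

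Vegfa (chromosome 17, 46016993 to 46032369, minus strand), the ligand of KDR and FLT1, was the other gene to rise. Its mean was 9.55 in Control and 10.11 in Arid4bSCKO, a difference of 0.56 (95% interval 0.10 to 1.02), or 1.47-fold (1.07 to 2.03), with an adjusted p of 0.0157 in the moderated limma test. At its level 3.44% of 2935 genes had a difference at least as high. Its implied SD between pools, 0.20, was also above the median of those genes, 0.12.

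Both calls rest on sharing the spread between genes of like level. With neither the trend of the spread on level nor robust fitting, the adjusted p was 0.0707 for Pdgfb and 0.113 for Vegfa, and the authors' deposited table gives an FDR of 0.138 for Pdgfb and 0.184 for Vegfa.

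The remaining PDGF ligands differed by less than their intervals. Pdgfa, the main PDGF of Sertoli cells, stood at 10.32 in Control and 10.58 in Arid4bSCKO, a difference of 0.27 (-0.21 to 0.75). Pdgfd, an activator mainly of PDGFRB, was at 8.73 and 8.91, a difference of 0.18 (-0.25 to 0.61). Pdgfc, which is secreted in a latent form, was at 9.50 and 9.51, and its difference of 0.01 had the narrowest interval of the 6 ligands (-0.22 to 0.24), which leaves out a change of 1.5-fold in either direction. The moderated adjusted p was 0.195 for Pdgfa, 0.410 for Pdgfd and 0.958 for Pdgfc. Annotated antisense exons cover 813 exonic bases of Pdgfa and 147 of Pdgfc, and since the use of strand in counting is not given in the sources used here, reads of the antisense genes cannot be told apart from theirs.

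Vegfc, the lymphatic ligand, had the lowest level of the 10 genes. Its mean was 5.80 in Control and 6.18 in Arid4bSCKO, or 54.7 and 71.4 normalized counts. The difference of 0.38 (-0.28 to 1.03) was within the spread, with an adjusted p of 0.339. As a fold the interval runs from 0.826 to 2.05, the widest relative range among the 8 genes that were not called.

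Among the receptors, Pdgfra (chromosome 5, 75152292 to 75198215, plus strand), which binds all PDGF chains but PDGFD, was by far the most abundant, above 99.2% of the genes tested. Its mean was 14.06 in Control and 13.80 in Arid4bSCKO, a difference of -0.25 (-0.63 to 0.13) with an adjusted p of 0.153. Pdgfrb, the receptor of pericytes and smooth muscle, was at 10.58 and 10.40, a difference of -0.18 (-0.44 to 0.08), adjusted p = 0.233. Neither passed, and as folds of Control the intervals reach down to 0.739 for Pdgfrb and to 0.644 for Pdgfra. Annotated exons of other genes, most of them antisense, cover 652 exonic bases of Pdgfra.

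Kdr, the main signalling receptor of VEGFA, was at 9.81 in Control and 9.60 in Arid4bSCKO, a difference of -0.22 (-0.61 to 0.18) and an adjusted p of 0.257. Flt1, which binds VEGFA, VEGFB and placental growth factor, was at 8.05 and 7.69, a difference of -0.36 (-0.76 to 0.04) and an adjusted p of 0.136. Of the 4 receptors Flt1 had the largest difference in size, and 85.1% of genes of its level had a difference at or above it. For its own level Pdgfra lay further out, with 95.5% of 154 genes at or above it. That share was 80.3% for Kdr and 75.1% for Pdgfrb. In these whole testes, fewer cells of a type and less RNA per cell cannot be told apart.

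**Figure D2:**
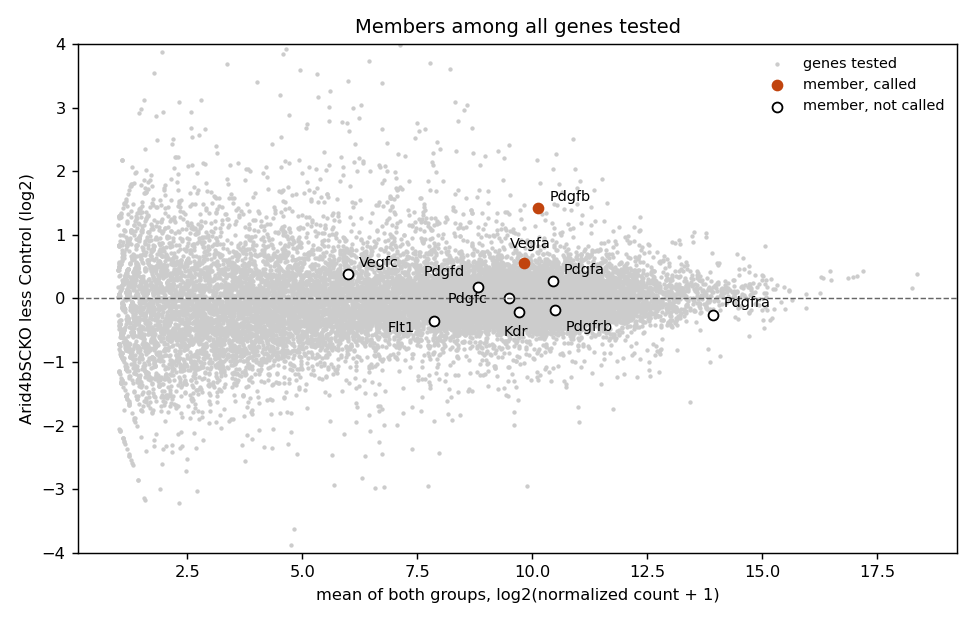
Difference between the groups (Arid4bSCKO less Control, log2) against the mean level of both groups, log2(normalized count + 1), for the genes tested (grey; 11 lie beyond the axis range). Pdgfb at 1.41 and Vegfa at 0.56 (red, called) lie in the upper part of genes of their level. Of those genes 0.336% were at least as high as Pdgfb and 3.44% at least as high as Vegfa. The other 8 genes (white) lie within the cloud, Pdgfra toward its lower side.

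Transcript length moved with the split between ligands and receptors. The ligand transcripts ran from 1795 to 3521 bases and the receptor transcripts from 5407 to 6895. Over all genes in the first range the median difference was -0.02 and 47.1% were positive, while in the second the median was -0.15 and 30.3% were positive. Over all 19095 genes the median was -0.04 and 45.8% were positive. With the trend over length removed the receptors were nearer to 0, Flt1 at -0.22, Pdgfra at -0.12, Kdr at -0.09 and Pdgfrb at -0.06. Pdgfb (1.45, adjusted p = 0.00845) and Vegfa (0.62, adjusted p = 0.00926) were as high as before and still called by the moderated limma test. Removing this trend moved the share of all calls that were upward from 53.3% to 65.3%.

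**Figure D3:**
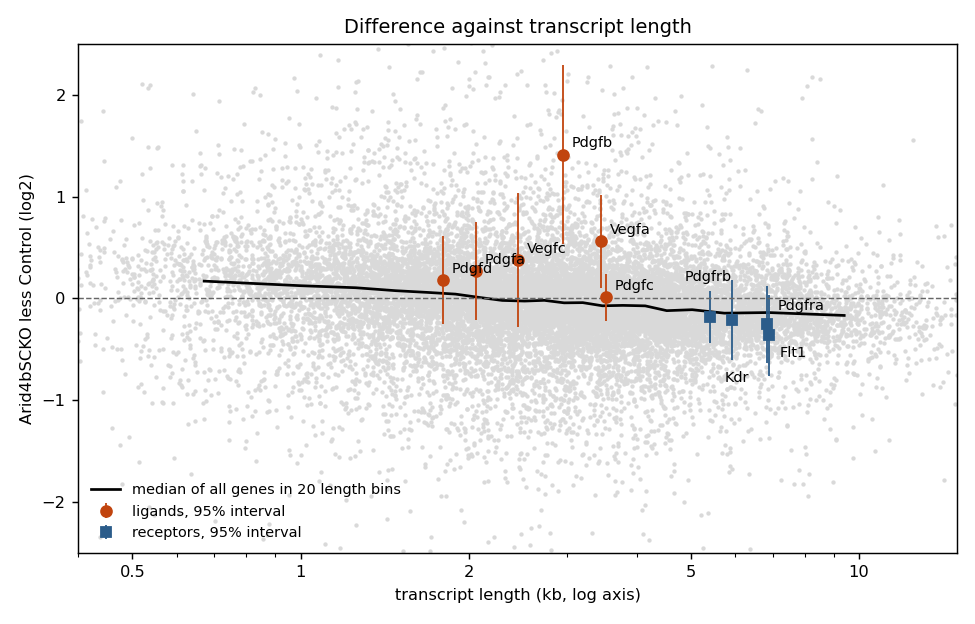
Difference between the groups (log2) against transcript length (kb, log axis) for all genes with a length (grey), with the median by length (black line), the ligands (red) and the receptors (blue) with 95% intervals. The 4 receptors lie near the black line, and Pdgfb and Vegfa lie above it.

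Levels of different genes were compared per length, as normalized counts per kb of the longest matched transcript. In Control testes Pdgfra led at 2495, followed by Pdgfa at 619. Pdgfrb at 283, Pdgfd at 236, Pdgfb at 234, Vegfa at 217 and Pdgfc at 205 formed a close group. From Pdgfd to Pdgfc, neighbours differed by less than the SD between pools that the deposited p-values imply. Kdr was at 152, Flt1 at 38.3 and Vegfc at 22.3. In Arid4bSCKO testes Pdgfb stood at 625, next to Pdgfa at 744, and Vegfa at 320 lay above Pdgfd (268) and Pdgfrb (250). Pdgfb thus went from place 5 to place 3, while Pdgfra and Pdgfa led and Vegfc came last in both groups. Summed over the 6 ligands, Arid4bSCKO reached 147% of the Control level in normalized counts, from 3913 in Control to 5756. Within those sums Pdgfb alone went from 690 to 1839, so the rise is largely that of 1 gene. Summed over the 4 receptors Arid4bSCKO reached 84.2%, a sum that is mostly Pdgfra.

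**Figure D4:**
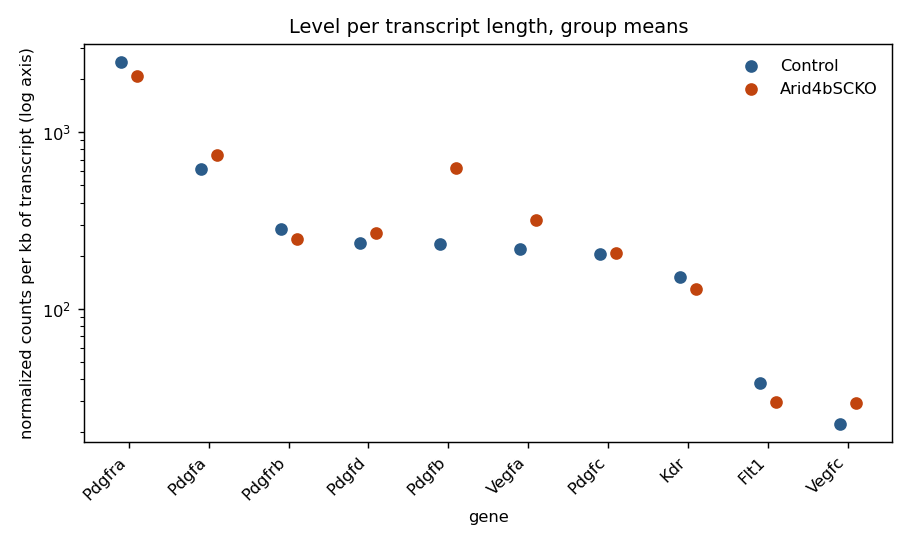
Group mean level per transcript length (normalized counts per kb, log axis) of the 10 genes in Control (blue) and Arid4bSCKO (red), ordered by the Control level. Pdgfb moves from 234 to 625, and the points of Pdgfc (205 and 207) nearly coincide.

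The rest of the 2 families was read from a list of 8 symbols, 7 of them in the table. Of these 7, 2 were called higher and 0 lower (28.6%, against 13.8% of all genes tested). The median difference was 0.26, against -0.04 over all genes tested. Both called genes were neuropilins, co-receptors of the VEGF family. Nrp1 was at 0.76 (95% interval 0.11 to 1.41, adjusted p = 0.0211) and Nrp2 at 0.46 (0.17 to 0.75, adjusted p = 0.0396). Figf, the older symbol of Vegfd, was at 0.26 (-0.17 to 0.69), Pgf, the placental growth factor gene, at 0.37 (-0.67 to 1.41) and Vegfb at -0.15 (-0.61 to 0.30). Pdgfrl, a receptor-like gene without a kinase domain, was at 0.21 (0.01 to 0.41, adjusted p = 0.315). Flt4, the receptor of VEGFC, was at -0.02 (-0.38 to 0.34), and its sign turned with centring or with the length trend removed.

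Some ligands of these families, among them PDGFC, PDGFD, VEGFC and VEGFD, are cut by proteases before they act. Of 7 genes for such steps, 3 passed upward and 1 downward (57.1%, against 13.8% of all genes tested), and their median was 0.28. Plat, the tissue plasminogen activator gene, whose product activates PDGFC, rose by 1.18 (0.67 to 1.69, adjusted p = 4.36e-04). Furin, whose product cuts the PDGFA, PDGFB and VEGFC precursors, rose by 0.87 (0.44 to 1.30, adjusted p = 0.00115), and Pcsk5, a related convertase gene, by 0.28 (0.10 to 0.46, adjusted p = 0.0453), a call that was lost without the filter on level (adjusted p = 0.0537). Ccbe1, a cofactor of VEGFC cleavage, was the gene called lower, at -0.54 (-0.96 to -0.12). It was named after its value was seen, and it lost its call with the length trend removed (adjusted p = 0.068).

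Genes downstream of the receptors and of a parallel system were read next. Of 28 adaptors and enzymes that carry receptor signals, 1 was called lower and 0 higher (3.57%, against 13.8% of all genes tested). Their median was -0.02, or 0.06 with the length trend removed. The gene called lower was Plcg1, the phospholipase that docks on KDR and on PDGF receptors, at -0.32 (-0.53 to -0.11, adjusted p = 0.0286), and with the length trend removed it was at -0.22 and not called (adjusted p = 0.113). In that setting the call of the list was instead Stat3, a transcription factor gene, at 0.45 (adjusted p = 0.0405), which was at 0.32 (-0.17 to 0.82, adjusted p = 0.125) before and was named after its values were seen. The angiopoietin arm, a second endothelial ligand and receptor system, was read together with Angptl1, an angiopoietin-like gene. None of these 6 genes was called by the moderated limma test, against 13.8% of all genes tested. With 6 genes, a count of 0 is near what that share gives. Of the 6, only Tie1 had an unadjusted p below 0.05 in the authors' deposited table, where 20.9% of all genes had one. The list median was -0.20. Its receptors Tie1 and Tek were at -0.20 (-0.38 to -0.02) and -0.19 (-0.54 to 0.16), Angpt2 at -0.34 (-0.97 to 0.29), Angpt4 at 0.36 (-0.50 to 1.21), Angptl1 at -0.21 (-0.74 to 0.33) and Angpt1 at -0.06 (-0.63 to 0.51).

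Vegfa is a known target of the hypoxia-inducible factors, so the oxygen-sensing genes were read beside it. Of 9 such genes 1 was called lower and 0 higher (11.1%, against 13.8% of all genes tested). Their median was -0.07, or 0.06 with the length trend removed. Hif1a, the oxygen-regulated subunit, was at -0.33 (-0.62 to -0.05, adjusted p = 0.038), but was not called with the length trend removed (adjusted p = 0.147) or with centring on the median (adjusted p = 0.058). Hif1an, the asparagine hydroxylase that restrains it, was at -0.27 (-0.48 to -0.06, not called) and Arnt, its partner, at -0.09 (-0.26 to 0.08). Of 16 other hypoxia-induced genes 3 passed upward and 1 downward (25%, against 13.8% of all genes tested), and their median was 0.11. Ndrg1 rose by 0.44 (0.31 to 0.57, adjusted p = 0.00711), Higd1a was at 0.24 (0.11 to 0.36, not called), and Mxi1 was at -0.30 (-0.49 to -0.11, adjusted p = 0.0465), a call lost in 4 of the alternatives on filter or scaling. The range of the 16 was -0.42 to 0.83, and the genes at its ends were not called. The difference of Vegfa, 0.56, lay inside that range but above most of the 16.

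Several receptor genes lie beside other receptor tyrosine kinase genes. Pdgfra, Kit and Kdr follow each other on chromosome 5, with 377 kb from Pdgfra to Kit and 276 kb from Kit to Kdr, and Pdgfrb and Csf1r lie 15.5 kb apart on chromosome 18. Of 10 tested genes near the receptor genes 1 was called higher and 1 lower (20%, against 13.8% of all genes tested). Between Pdgfra (-0.25) and Kdr (-0.22), Kit was at 0.47 (-0.22 to 1.15), not called and opposite in sign. Csf1r, the receptor of macrophage growth factors, rose by 0.71 (0.14 to 1.28, adjusted p = 0.0125) beside Pdgfrb at -0.18. Flt3, the neighbour of Flt1, fell by 1.93 (-3.01 to -0.85, adjusted p = 0.00327), where Flt1 was at -0.36. Fip1l1, near Pdgfra, was at -0.21 (-0.35 to -0.07, not called).

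**Figure D5:**
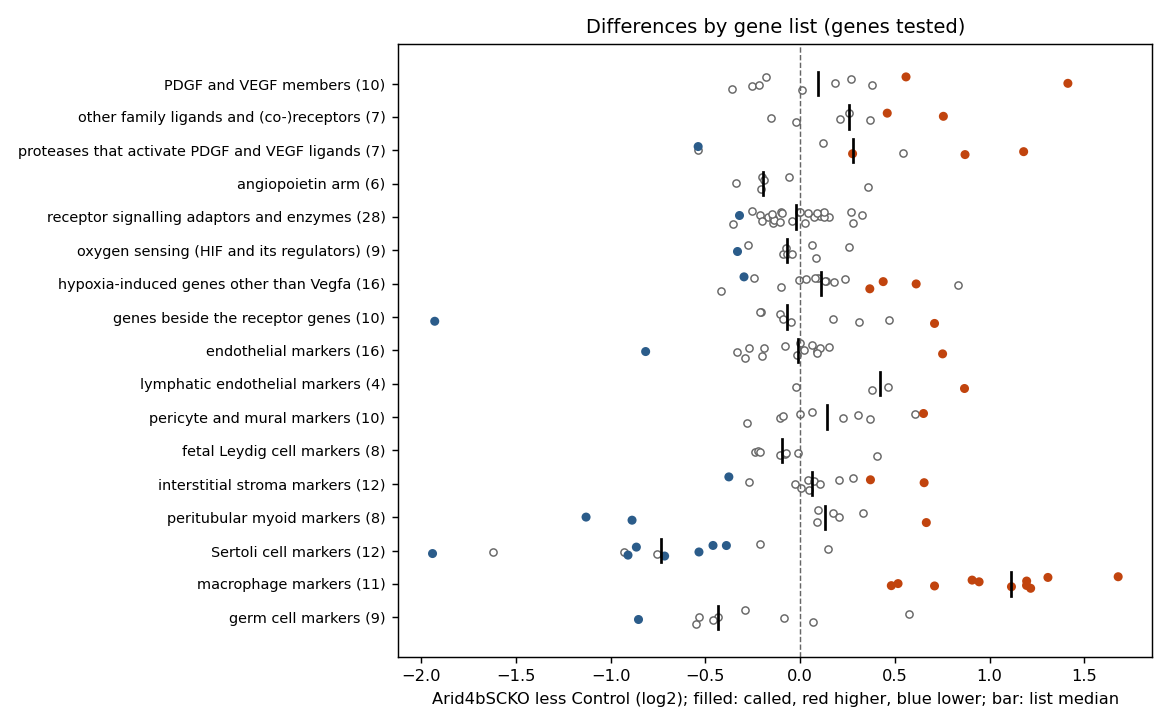
Differences between the groups (log2) of the tested genes of each list, with the number tested in parentheses, filled where called (red higher, blue lower) and with a bar at the list median. The 10 members spread from -0.36 to 1.41, while the 11 macrophage markers all lie above 0.48 and 11 of 12 Sertoli cell markers lie below 0.

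Markers of the cells that carry these genes were read in the same table, and no marker was at 0 in either group (0 of 90). For the counts below, 7.37% of all genes tested were called higher and 6.46% lower. Of 16 endothelial markers, cells known for Kdr, Flt1 and Pdgfb, 1 was called higher (Robo4, 0.75) and 1 lower (Sox18, -0.82, named after its value was seen). Their median was -0.01, or 0.03 with the length trend removed, and their summed level was 11538 normalized counts in Arid4bSCKO and 12803 in Control. The abundant Cdh5 and Eng were at -0.33 (-0.73 to 0.07) and -0.08 (-0.45 to 0.29), while Ramp2 stood at -0.29 (-0.45 to -0.12) and was called under 2 alternatives, a minimum level of 5 and the length trend removed. Of the 16 markers 7 had positive and 9 negative differences, beside Kdr and Flt1 at 86.1% and 77.9% of Control, neither called, and Pdgfb at 266%. Of 4 tested lymphatic markers, only Lyve1 was called, higher at 0.86 (0.30 to 1.43, adjusted p = 0.0155 in the moderated limma test). Flt4 and Pdpn, the latter at 0.47 (-0.29 to 1.22), were not called. The list median was 0.42, beside Vegfc at 0.38, which was not called either.

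Of 10 pericyte and mural markers, cells known for Pdgfrb, only Mcam was called, at 0.65 (10%, against 13.8% of all genes tested). The list median was 0.14 and the sums were 11302 in Arid4bSCKO and 9027 in Control, of which Mcam alone made up 6036 and 3855. Cspg4 was at -0.28 (-0.61 to 0.05) and Higd1b at 0.61 (-0.02 to 1.24). Of 12 stromal markers, cells known for Pdgfra, 2 passed upward and 1 downward (25%), and their median was 0.06. Dpt rose by 0.65 and Nr2f2 fell by 0.38, the latter not called with the length trend removed (adjusted p = 0.0975), and the collagen genes Col3a1 and Col1a2 were at 0.07 and -0.03. Peritubular myoid markers had 1 of 8 called higher and 2 lower (37.5%). Of 8 fetal Leydig cell markers 0 were called. Only 1 of the 8 had an unadjusted p below 0.05 in the authors' deposited table, where 20.9% of all genes had one.

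Larger shifts were seen in macrophage and Sertoli cell markers, and they moved in the same comparison as Pdgfb and Vegfa. All 11 macrophage markers were called higher, as were 7.37% of all genes tested. Their median was 1.12, and their summed level was 7204 normalized counts in Arid4bSCKO and 3217 in Control. C1qa was at 1.20 (0.78 to 1.61), Mrc1 at 0.52 (0.32 to 0.72) and Lyz2 at 1.68 (0.47 to 2.89), the last of which lost its call without the filter on level (adjusted p = 0.0606) and once the trend over length was removed (adjusted p = 0.0502). Of the 11 markers 9 were called without the filter, 10 with the length trend removed, and 1 with neither trend nor robust fitting of the spread. Of 12 Sertoli cell markers 7 passed, all downward (58.3%, against 6.46% of all genes tested called lower). Their median was -0.73 and the sums were 75316 in Arid4bSCKO and 125262 in Control. Of the 12 markers 11 had negative differences and 1 a positive one. The latter was Sox9, at 0.15 (-0.38 to 0.68, not called), named after its value was seen. Clu and Inha were at -0.46 and -0.91, Nr5a1 at -0.53 and Hsd17b1 at -1.94, the last of which was not called without the filter on level (adjusted p = 0.0522). Of 9 germ cell markers 1 was called lower (11.1%), while 7 had negative and 2 positive differences. The median of that list was -0.43, and the sums were 7910 in Arid4bSCKO and 10674 in Control. Macrophages are known to express Vegfa, Pdgfb and Nrp1, and Sertoli cells Pdgfa and Vegfa, and the part of these shifts in the differences of the 10 genes was not tested.

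The targeted gene Arid4b was at 35.1% of Control, a difference of -1.51 (-1.82 to -1.21, adjusted p = 2.23e-05 in the moderated limma test). This whole-testis value does not give the loss in Sertoli cells alone, since other cells also differed by the null allele. The depth, read from the worth of 1 read, was about 17.5 M reads per library in Arid4bSCKO and 18.6 M in Control, so Vegfc rested on about 53.2 reads per library in Arid4bSCKO and 44.6 in Control, and the other 9 genes on 153 to 13898.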

How the data were processed

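Strand-preserving poly(A) libraries were read from both ends, per the labels' protocols. The submitters' processing notes list STAR 2.4 and mm10. The counter, its strand setting, the annotation and the normalization method were not given in the sources used here. Deposited is a table that holds, per the file headers and column descriptions, the authors' group means of log2 normalized counts (an offset of 1 was read from the values), the log2 ratio of group medians, and p-values that assume equal variance in the groups, raw and as a Benjamini-Hochberg FDR. Values per pool were not analysed here, so a mean stands without an SD of its own.

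Standard errors and 95% intervals were worked back from the deposited p-values with 4 degrees of freedom. Variances of the 19095 genes at a mean level of at least 1 (529 rows read as filled-in values left out) were moderated with limma 3.58.1 in R 4.3.3 (squeezeVar, trend on level, robust fitting), and p-values were adjusted by Benjamini-Hochberg over those genes. The procedure was tested on simulated data. The deposited p-values measure only the spread between these pools. The moderated ones also draw on the spread of other genes of like level between the same pools. Transcript lengths came from GENCODE M21 for 19773 genes, as the longest transcript matched by RefSeq accession or symbol, and trends were fitted by lowess.

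The members and the 7 pathway and 9 marker lists were chosen with earlier results of these data known. Some lists share genes. Named are all members, the whole lists of other family genes and of the angiopoietin arm, the 3 genes with the smallest deposited p in the other pathway lists, and the 2 most abundant and 2 smallest p in marker lists. Some genes this rule names are not reported here. For the lymphatic, Leydig, myoid and germ cell lists the genes of the rule are not given singly, apart from Flt4, Lyve1 and Pdpn. Alternatives changed the spread model, filter, scaling, length trend, adjustment and fold.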

Additional observations from a re-analysis of the deposited data

How the results depend on the processing

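The count of 2 members called held without the filter on level, with a minimum mean level of 5, with centring on the trend over level or on the median, and with the length trend removed. It was 0 with neither trend nor robust fitting, 0 with robust fitting and no trend, 0 with Holm adjustment and 0 by the FDR of the authors' deposited table. In the same order, all genes called numbered 2641 and became 237, 135, 102 and 58, those called higher 1408 and then 164, 99, 85 and 31, and those called lower 1233 and then 73, 36, 17 and 27. Genes called lower numbered 805 with the length trend removed. Of the pathway genes 14 were called, and then 0, 0, 1 (Plat, adjusted p = 0.04) and 0. The cause was not tested. The sign of Pdgfc turned in the ratio of medians of the authors' deposited table (-0.0251). Flt4 turned to 0.0190 with centring on level, 0.0118 on the median and 0.107 with the length trend removed. With that trend removed Angpt1, Arnt and Col1a2 stood at 0.0352, 0.00856 and 0.0920. Col1a2 was at 0.00680 with centring on the median and Col3a1 at -0.0623 on level. None of these genes was called in any setting. No paired analysis was possible because the table gives group means without values per replicate, and for the same reason no pool could be left out. Among the 10 members Vegfc rests on the fewest reads, and of the other genes named Flt3, Higd1b, Angpt4 and Prox1 rest on fewer in at least 1 group.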
